A study of Mus musculus with 30 samples.

Results

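Nacc1, Pbrm1, Zbtb20, Zfp386, Zfp574 and Zfp945 encode zinc finger and chromatin regulators of transcription, and their transcripts were examined in C2C12 myotubes across all 5 groups of the study. These 6 genes of the 55487 in the count table were chosen from measured values, because the study placed them among genes altered by serum deprivation (SD) and returned toward the 2% horse serum (2% HS) level by metformin plus leucine (MET+LEU). SD vs. 2% HS, MET+LEU vs. SD and MET+LEU vs. 2% HS are therefore only described for the 6 genes: the adjusted p-values and calls given for them state how the genes met the rule and are no independent test. All 6 were among the 15907 genes that passed the filter on low counts.

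C2C12 is a mouse myoblast line whose cells fuse into multinucleated myotubes when serum is lowered. Wild-type C2C12 cells were differentiated for 4 days in low glucose medium with 2% HS. They then stayed in that medium (2% HS), or were kept in low glucose medium without serum (SD), until day 8. The other 3 groups were serum deprived in the same way with 100 nM metformin (MET), 500 nM leucine (LEU) or both at these doses (MET+LEU). Each group had 6 replicates, so 30 libraries of ribosomal RNA-depleted total RNA were compared. Metformin is a biguanide that acts on mitochondrial energy metabolism and AMPK, and leucine is a branched-chain amino acid that activates mTORC1. All results are from 1 cell line, and the labels do not say whether replicates were separate cultures, so p-values measure the spread between these samples, which may be technical.

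Transcription in a myotube depends on which stretches of chromatin are open and on which repressors are bound there. SWI/SNF complexes use ATP to slide or evict nucleosomes, and PBAF is the form of SWI/SNF that contains PBRM1, a protein with many acetyl-lysine-binding bromodomains. C2H2 zinc finger proteins bind chosen DNA sequences; those with a KRAB domain recruit TRIM28 and SETDB1 to silence chromatin, and those with a BTB domain recruit NCoR, SMRT or BCOR co-repressors and histone deacetylases. NACC1 has a BTB domain without zinc fingers and a BEN domain, and acts as a co-repressor of transcription. NuRD is a further co-repressor complex, whose subunits are also counted below.

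Library totals ran from 12784960 to 19604103 counts. Defining transcripts of myotubes were present, since Myog lay between 895 and 1160 CPM (counts per fixed library size after TMM scaling) and Des between 1650 and 2140 CPM over all groups, while the macrophage marker Adgre1 had 0 counts and Ptprc 4 counts in the whole table. Cycling and satellite cell markers were present too, with Mki67 between 52.7 and 98.8 CPM and Pax7 between 131 and 196 CPM. Markers of several cell types moved between the groups that chose the 6 genes. Of 8 myotube markers (Myog and Des among them), 2 had no overlap in SD vs. 2% HS, both lower in SD (Ckm at 139 to 180 CPM in SD and 289 to 327 CPM in 2% HS, and Myh1), and 4 had none in MET+LEU vs. SD, all higher in MET+LEU (Myh1, Myh3, Mef2c and Tnnt3, the last at 390 to 487 CPM in SD and 643 to 1240 CPM in MET+LEU). The summed level of the 8 was 10952 to 11511 CPM in 2% HS, 9999 to 11468 CPM in SD and 11171 to 12921 CPM in MET+LEU. It was 10180 to 10615 CPM in MET and 10925 to 11545 CPM in LEU. Of 3 cycling markers, Top2a and Ccnb1 were lower in every MET+LEU library than in any SD library. The summed level of the 3 was 132 to 161 CPM in 2% HS, 124 to 184 CPM in SD and 96.4 to 128 CPM in MET+LEU. In MET and LEU the 3 summed to 119 to 174 CPM and 104 to 133 CPM. The 2 satellite cell markers summed to 204 to 217 CPM in 2% HS, 155 to 178 CPM in SD and 147 to 178 CPM in MET+LEU. The 2 fibroblast markers Pdgfra and Dcn summed to 22.5 to 31.3, 37.1 to 49.3 and 49.1 to 58.9 CPM in the same order. In MET and LEU the satellite cell sums were 160 to 173 and 167 to 184 CPM, and the fibroblast sums 43.5 to 50.2 and 42.1 to 50.3 CPM. The 2 adipocyte, the 2 endothelial and the 2 macrophage markers summed to at most 0.229, 0.770 and 0.125 CPM in any library. The part of these cell type markers in the differences of the 6 genes was not tested. In bulk RNA, fewer cells of one type and less RNA per cell cannot be told apart. The library MET+LEU 6 stood apart, with 7.64% of its counts on mitochondrial ribosomal RNA (at most 0.760% in any other) and 5.85% on nuclear ribosomal RNA (at most 1.96% in any other). Values without it are therefore given where a call changed or a called value moved by over 1.5 times, and for some other values. Leaving it out does not remove the difference between groups in mitochondrial ribosomal RNA. That share was 0.649% to 0.760% in the other MET+LEU libraries, 0.281% to 0.367% in SD and 0.219% to 0.306% in 2% HS. It was 0.244% to 0.705% in MET and 0.501% to 0.710% in LEU, so both overlapped the MET+LEU range.

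Of the 6 genes, 4 were lower in SD than in 2% HS and higher in MET+LEU than in SD (Pbrm1, Zbtb20, Zfp386 and Zfp945), and 2 moved the other way (Nacc1 and Zfp574). The differences were small, from 0.13 to 0.22 in size on the log2 scale in SD vs. 2% HS, and from 0.10 to 0.29 in MET+LEU vs. SD. All 6 passed an adjusted p of 0.05 in both comparisons, beside 27.8% of all genes in the first and 18.4% in the second, and 0 of 6 in MET+LEU vs. 2% HS, beside 42.3% of all genes (0 of 6 at an unadjusted p under 0.05, beside 49.4%, and 0 by DESeq2 but 1 by limma-voom). The rule that chose the genes used these contrasts, so nothing is read from those counts. Libraries of the groups overlapped for all 6 genes in SD vs. 2% HS and MET+LEU vs. SD, while 13.6% and 5.34% of all genes had no overlap there. The full pattern was met by 345 of the 15907 genes (2.17%), of which 153 were lower in SD (0.962%) and 192 higher (1.21%). Closest to the threshold inside it were Zfp574 in SD vs. 2% HS (edgeR adjusted p = 0.0203) and Nacc1 in MET+LEU vs. SD (edgeR adjusted p = 0.0208), and the lowest value in MET+LEU vs. 2% HS was that of Zfp386 (edgeR adjusted p = 0.268).

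**Figure D1:**
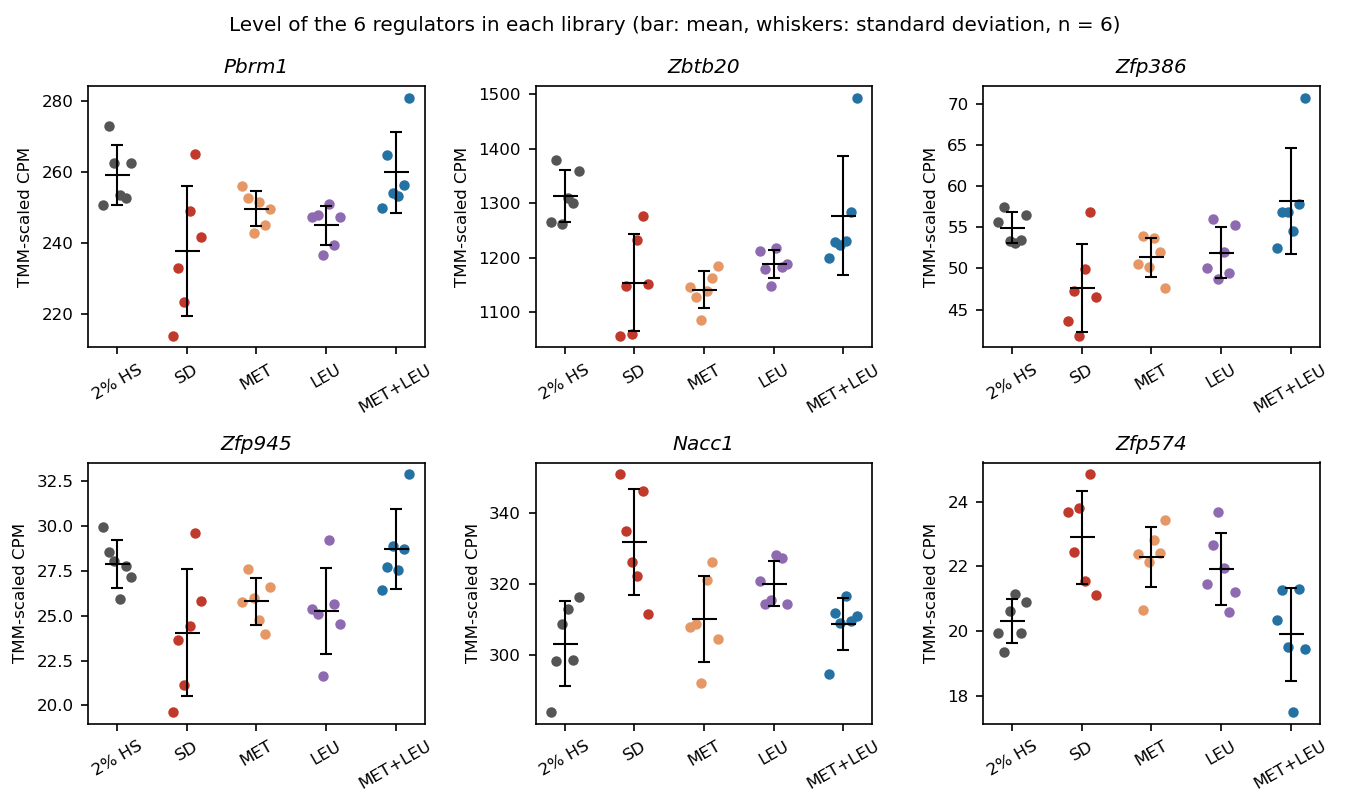
Each panel plots the TMM-scaled CPM of 1 gene in the 30 libraries (1 point each) by group, with the mean as a bar and the standard deviation as whiskers (n = 6). The vertical axes do not start at 0. The SD libraries spread widely and overlap the 2% HS and MET+LEU libraries in every panel, and MET+LEU 6 is the highest point for Pbrm1, Zbtb20, Zfp386 and Zfp945.

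The promoters of the 4 genes that were lower in SD are shown because these genes moved together. They are the 250 bases before the start in RefSeq, build GRCm38.p6, read 5′ to 3′ on the strand of the gene. Of the 6 genes, 4 matched the RefSeq promoter table, and Nacc1 and Zfp574 did not. Capitals mark matches on either strand to the GC box GGGCGG, the CCAAT box CCAAT, the E-box CACGTG, the ETS core CCGGAAGT, the cAMP response element TGACGTCA or the TATA box TATAAA.
Pbrm1, chr14:31018888-31019137, plus strand: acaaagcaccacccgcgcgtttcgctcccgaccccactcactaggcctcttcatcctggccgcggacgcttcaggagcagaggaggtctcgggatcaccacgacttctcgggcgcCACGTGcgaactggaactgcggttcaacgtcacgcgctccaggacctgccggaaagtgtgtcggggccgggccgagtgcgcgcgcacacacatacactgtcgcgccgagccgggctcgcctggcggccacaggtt
Zbtb20, chr16:43247034-43247283, plus strand: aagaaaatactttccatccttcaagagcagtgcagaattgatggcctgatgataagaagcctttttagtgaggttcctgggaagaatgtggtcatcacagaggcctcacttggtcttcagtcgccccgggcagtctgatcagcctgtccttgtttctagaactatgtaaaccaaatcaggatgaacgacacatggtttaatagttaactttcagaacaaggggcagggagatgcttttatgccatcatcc
Zfp386, chr12:116047474-116047723, plus strand: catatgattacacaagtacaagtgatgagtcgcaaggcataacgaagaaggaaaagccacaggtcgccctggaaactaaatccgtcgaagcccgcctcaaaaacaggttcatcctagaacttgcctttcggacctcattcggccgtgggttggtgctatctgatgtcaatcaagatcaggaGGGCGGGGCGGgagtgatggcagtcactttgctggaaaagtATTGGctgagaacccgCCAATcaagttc
Zfp945, chr17:22867135-22867384, minus strand: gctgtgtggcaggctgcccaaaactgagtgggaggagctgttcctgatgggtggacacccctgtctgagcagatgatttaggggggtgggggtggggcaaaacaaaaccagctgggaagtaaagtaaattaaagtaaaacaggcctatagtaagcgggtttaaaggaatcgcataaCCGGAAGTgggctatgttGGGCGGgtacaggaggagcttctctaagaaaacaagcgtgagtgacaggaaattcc

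These promoters differed in the motifs they held, though Zfp386 and Zfp945 both had a GC box. Pbrm1 had 1 E-box, which occurs in 6.02% of 32851 promoter windows of the same length. Zfp386 had 2 overlapping GC boxes (a GC box occurs in 32.7% of windows) and 2 CCAAT boxes, one on each strand (33.8%). Zfp945 had 1 ETS core (2.88%) and 1 GC box. The Zbtb20 window had a match to none of the 6 motifs, and the cAMP response element (1.55% of windows) and the TATA box (12.4%) were matched in none of the 4 genes. The windows also differed in CG dinucleotides, with 31 in Pbrm1, 12 in Zfp386, 5 in Zfp945 and 3 in Zbtb20, beside a median of 6.00 over all windows. The Zbtb20 window lies at a start inside the annotated gene. No motif of the set was shared by all 4 promoters, and a match is a description of letters, not of a bound factor.

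Pbrm1, the bromodomain subunit of PBAF, lies on chr14:31019138-31121592 (GRCm38, plus strand; ENSMUSG00000042323) and had 3281 to 5011 counts per library. Its TMM-scaled CPM had a lowest, median and highest value of 250.6, 258.0 and 273.0 in 2% HS and 213.9, 237.3 and 265.1 in SD. In MET+LEU these were 249.7, 255.2 and 280.8. All but 1 of the SD libraries were below every 2% HS library and below every MET+LEU library, and SD 5 lay among them. MET (242.9, 250.5 and 256.1) and LEU (236.7, 247.4 and 251.0) lay between and overlapped every other group. The log2 fold change was -0.13 ± 0.037 (SE, n = 6 per group) in SD vs. 2% HS, 0.13 ± 0.037 in MET+LEU vs. SD and 0.0036 ± 0.037 in MET+LEU vs. 2% HS. Without SD 1 or SD 3 the MET+LEU vs. SD value was 0.092 or 0.10, and neither passed the threshold. Pbrm1 shares 15 exonic bases with the start of Gnl3 on the other strand, a nucleolar GTPase gene.

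Zbtb20, a BTB zinc finger repressor known for silencing Afp in adult liver, lies on chr16:42875881-43642602 (plus strand; ENSMUSG00000022708) and had the most reads of the 6 genes, 16128 to 25882 counts per library. The lowest, median and highest CPM were 1262, 1305 and 1379 in 2% HS, 1057, 1150 and 1276 in SD, and 1200, 1229 and 1493 in MET+LEU. They were 1085, 1143 and 1185 in MET and 1147, 1185 and 1217 in LEU. The 6 MET and the 6 LEU libraries all lay below the lowest 2% HS library, whereas SD 5 reached into the 2% HS range, and every MET+LEU library lay above every MET library. Among all genes, groups did not overlap for 20.2% in MET vs. 2% HS, 18.6% in LEU vs. 2% HS and 3.77% in MET+LEU vs. MET. The log2 fold change was -0.19 ± 0.043 (SE, n = 6 per group) in SD vs. 2% HS, 0.15 ± 0.043 in MET+LEU vs. SD and -0.040 ± 0.043 in MET+LEU vs. 2% HS. MET+LEU 6, at 1493 CPM, was far above the next library of its group at 1284 CPM. Without MET+LEU 6, the value was 0.091 in MET+LEU vs. SD, which no longer passed the threshold, and -0.098 in MET+LEU vs. 2% HS, which then passed it. Without SD 1 or SD 3, MET+LEU vs. SD gave 0.11 and did not pass the threshold either.

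Zfp386, a KRAB zinc finger gene on chr12:116047724-116063360 (plus strand; ENSMUSG00000042063), had 652 to 1049 counts per library. Its CPM had a lowest, median and highest value of 53.09, 54.58 and 57.50 in 2% HS, 41.84, 46.88 and 56.86 in SD, and 52.52, 56.86 and 70.71 in MET+LEU. It had 47.57, 51.30 and 53.92 in MET and 48.65, 51.02 and 56.02 in LEU. The SD group was the lowest and the MET+LEU group the highest in mean, and 5 of 6 SD libraries were below every 2% HS and every MET+LEU library. The log2 fold change was -0.21 ± 0.059 (SE, n = 6 per group) in SD vs. 2% HS, 0.29 ± 0.058 in MET+LEU vs. SD and 0.081 ± 0.058 in MET+LEU vs. 2% HS (0.013 without MET+LEU 6). The value in MET+LEU vs. SD was 0.22 without MET+LEU 6 and still past the threshold, as it was under every alternative run at that threshold.

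Zfp945, a C2H2 zinc finger gene on chr17:22846697-22867134 (minus strand; ENSMUSG00000059142), had 333 to 512 counts per library. The lowest, median and highest CPM were 25.91, 27.91 and 29.93 in 2% HS, 19.63, 24.03 and 29.63 in SD, and 26.45, 28.21 and 32.89 in MET+LEU. They were 24.01, 25.90 and 27.62 in MET and 21.66, 25.24 and 29.21 in LEU. SD 5 again lay with the 2% HS and MET+LEU libraries, and the other 5 SD libraries lay below all of both groups. The log2 fold change was -0.22 ± 0.070 (SE, n = 6 per group) in SD vs. 2% HS, 0.26 ± 0.070 in MET+LEU vs. SD and 0.039 ± 0.069 in MET+LEU vs. 2% HS. The SD vs. 2% HS value was -0.17 without SD 1 and -0.19 without SD 3, and neither passed the threshold. Its tested neighbours are zinc finger genes too, and Zfp946 was 0.36 ± 0.11 in MET+LEU vs. SD and 0.053 ± 0.11 in SD vs. 2% HS, while Zfp40 was 0.063 ± 0.098 and 0.11 ± 0.099.

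Nacc1, the BTB and BEN domain co-repressor gene, lies on chr8:84670483-84687862 (minus strand; ENSMUSG00000001910) and had 3839 to 6416 counts per library. It was one of the 2 genes that were higher in SD. The lowest, median and highest CPM were 284.1, 303.8 and 316.5 in 2% HS, 311.5, 330.5 and 350.8 in SD, and 294.7, 310.3 and 316.6 in MET+LEU. They were 292.3, 308.4 and 326.3 in MET and 314.3, 318.3 and 328.2 in LEU. All SD libraries but SD 6 were above every 2% HS and every MET+LEU library. The log2 fold change was 0.13 ± 0.033 (SE, n = 6 per group) in SD vs. 2% HS, -0.10 ± 0.033 in MET+LEU vs. SD and 0.026 ± 0.033 in MET+LEU vs. 2% HS. MET vs. SD gave -0.098 ± 0.033, nearly the size of MET+LEU vs. SD, and did not pass the threshold. Trmt1 lies partly over Nacc1 on the other strand and shares no exonic base with it.

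Zfp574, a C2H2 zinc finger gene on chr7:25072567-25083492 (plus strand; ENSMUSG00000045252), had the fewest reads, 240 to 433 counts per library. The lowest, median and highest CPM were 19.35, 20.29 and 21.15 in 2% HS, 21.13, 23.06 and 24.85 in SD, and 17.49, 19.92 and 21.31 in MET+LEU. They were 20.65, 22.39 and 23.43 in MET and 20.59, 21.71 and 23.67 in LEU. SD 6 was the only SD library inside the 2% HS or the MET+LEU range. The log2 fold change was 0.17 ± 0.057 (SE, n = 6 per group) in SD vs. 2% HS, -0.20 ± 0.057 in MET+LEU vs. SD and -0.033 ± 0.058 in MET+LEU vs. 2% HS. The SD vs. 2% HS value was 0.15 without SD 5 and 0.16 without 2% HS replicate 2, and neither passed the threshold.

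Per length of exon, the levels of the 6 genes spanned a wide range. Mean RPKM (TMM-scaled CPM per kilobase of exon) over the 5 groups was 73.2 for Nacc1, 39.5 for Zbtb20, 28.3 for Pbrm1, 6.03 for Zfp386, 4.41 for Zfp574 and 2.59 for Zfp945. These stood at the percentiles 97.2, 93.9, 90.8, 57.4, 49.4 and 37.4 of the tested genes. The 3 genes of the BTB and PBAF systems were thus among the more abundant transcripts per length, and the 3 Zfp genes were near or below the middle.

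MET vs. LEU is the comparison whose libraries took no part in choosing the genes. None of the 6 differed there past the threshold in edgeR's quasi-likelihood test, beside 0.0754% of all genes. The lowest adjusted p in edgeR was 0.750, for Nacc1. The number at an unadjusted p under 0.05 was 0 of 6 as well, beside 8.68% of all genes, and DESeq2 and limma-voom each called 0. The 95% interval of the log2 difference, MET minus LEU, ran from -0.11 to 0.021 for Nacc1, from -0.047 to 0.10 for Pbrm1 and from -0.14 to 0.028 for Zbtb20. It ran from -0.13 to 0.10 for Zfp386, from -0.089 to 0.14 for Zfp574 and from -0.11 to 0.17 for Zfp945. Each interval includes 0, and a p above the threshold does not show that the single treatments acted alike.

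The single treatments were set beside SD with the same SD libraries that the choice of genes had used. In MET vs. SD, 0 of 6 passed the threshold in edgeR (0.157% of all genes did), 1 had an unadjusted p under 0.05 (10.0% of all genes), and the log2 fold changes ran from -0.098 for Nacc1 to 0.11 for Zfp386. In LEU vs. SD, 0 of 6 passed (0.553% of all genes), 1 had an unadjusted p under 0.05 (9.98% of all genes), and the values ran from -0.063 for Zfp574 to 0.13 for Zfp386. DESeq2 and limma-voom called 0 in both. In mean level, MET and LEU lay between SD and 2% HS for 5 of the 6 genes. Zbtb20 was the exception, with a mean of 1141 ± 33.8 CPM in MET, 1154 ± 89.1 CPM in SD and 1188 ± 25.4 CPM in LEU (standard deviation, n = 6).

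Against 2% HS, only Zbtb20 passed the threshold in the single treatments, at -0.20 ± 0.043 in MET (35.0% of all genes passed) and -0.14 ± 0.043 in LEU (29.7% of all genes). In MET+LEU vs. MET, Zbtb20 (0.16 ± 0.043) and Zfp386 (0.18 ± 0.058) passed, beside 8.69% of all genes. Zfp386 was only just past the threshold (edgeR adjusted p = 0.0449), and lost its call in 31 of 40 alternatives, DESeq2 size factors, upper-quartile scaling and limma-voom among them. Zbtb20 lost its call in 3 of 40, which were the fit of only those groups, that without MET replicate 3 and that without MET+LEU 6. Without MET+LEU 6 the values were 0.10 for Zbtb20 and 0.11 for Zfp386. Zfp574 did not pass, but did in 19 of 40 alternatives. Set against LEU, MET+LEU had 0 of 6 genes past the threshold in edgeR, 5 had an unadjusted p under 0.05 (21.5% of all genes), and 6.28% of all genes passed. Neither DESeq2 nor limma-voom called any of them there. The interaction of MET and LEU, which asks whether the combination differed from the sum of the single treatments, passed for 0 of 6 genes (0 at an unadjusted p under 0.05, beside 8.73%, and 0 by DESeq2 and limma-voom), beside 0.0503% of all genes. For Zbtb20 it was 0.12 ± 0.061, and 0.059 without MET+LEU 6. Each comparison of this kind, the interaction included, uses 2% HS, SD or MET+LEU libraries that chose the genes, so its calls are not independent of that choice.

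The 2 directions of change went with the base composition of the transcripts. The longest transcripts of the 4 genes that were lower in SD held 35.9% (Zfp945), 40.5% (Zfp386), 41.8% (Pbrm1) and 43.0% (Zbtb20) G and C, and those of the 2 that were higher held 57.7% (Nacc1) and 58.3% (Zfp574). The median over all tested genes was 49.0%. Libraries differed in their balance of GC-poor and GC-rich transcripts as a whole. This balance was measured as the mean log2 deviation of genes under 45% GC minus that of genes over 55% GC, and was -0.063 ± 0.15 in SD, 0.089 ± 0.17 in MET+LEU and 0.018 ± 0.064 in 2% HS (standard deviation, n = 6). MET (-0.011 ± 0.031) and LEU (-0.032 ± 0.042) varied less.

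Within SD the balance was -0.302 in SD 1, -0.139 in SD 3, -0.091 in SD 2, 0.014 in SD 6, 0.058 in SD 4 and 0.083 in SD 5. The 6 SD libraries stood in this same order by their level of Pbrm1, and again by their level of Zbtb20. SD 1 and SD 3 were also the lowest SD libraries for Zfp386 and Zfp945, and SD 5 the highest for all 4 GC-poor genes. For the GC-rich pair the order was reversed only in part. SD 6 was the lowest and SD 4 the next lowest SD library for both genes, and SD 1 was the highest for Nacc1. Against a reversed order, SD 5 was the highest SD library for Zfp574 and the second highest for Nacc1. Within MET+LEU the highest balance was that of MET+LEU 6, at 0.374, which was the highest library of its group for the 4 GC-poor genes. The other MET+LEU libraries did not keep the order of the balance. MET+LEU 1, with a balance of 0.040, was the lowest for all 4 of these genes. MET+LEU 2 had the lowest balance of the group (-0.095) and was second highest for Pbrm1 (264.7 CPM). The levels and the balance come from the same libraries, and for each of the 6 genes all SD libraries but 1 lay on one side of the 2% HS libraries.

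**Figure D2:**
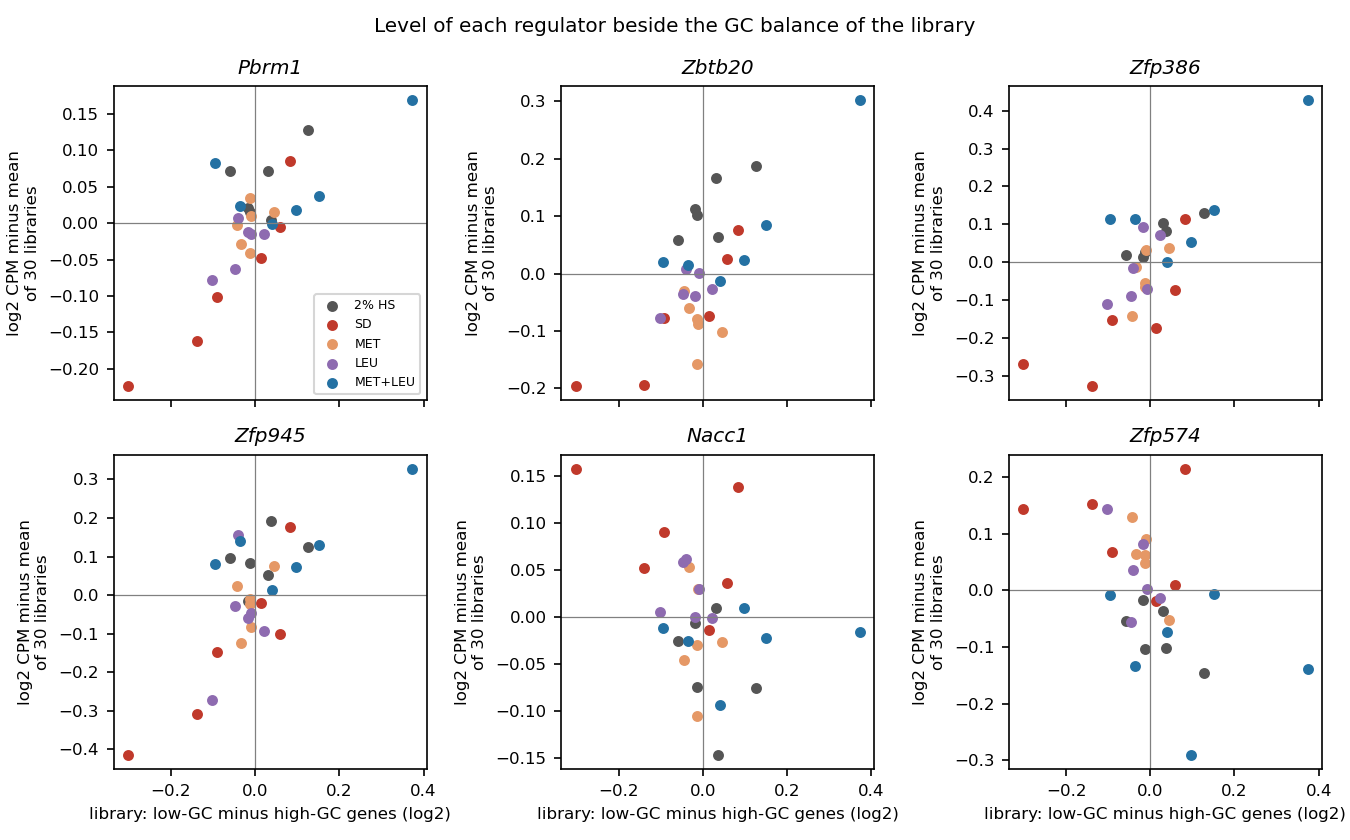
Each panel plots the log2 CPM of 1 gene, minus its mean over the 30 libraries, against the balance of GC-poor over GC-rich genes in the same library (log2), coloured by group. For Pbrm1, Zbtb20, Zfp386 and Zfp945, SD 1 and SD 3 stand at the lower left and MET+LEU 6 at the upper right. For Nacc1 and Zfp574, SD 6 and SD 4 are the lowest SD libraries, while SD 5, which has the highest balance of the SD libraries, stands well above them.

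When an offset for GC content was added to the fit for each library, the differences became smaller. In SD vs. 2% HS the log2 fold changes were -0.091 for Pbrm1, -0.16 for Zbtb20, -0.16 for Zfp386, -0.11 for Zfp945, 0.096 for Nacc1 and 0.13 for Zfp574, and 4 of 6 passed the threshold, all but Zfp945 and Zfp574 (29.9% of all genes passed). For MET+LEU vs. SD they were 0.057 for Pbrm1, 0.081 for Zbtb20, 0.20 for Zfp386, 0.16 for Zfp945, -0.015 for Nacc1 and -0.11 for Zfp574. Here only Zfp386 passed (15.7% of all genes). All 12 values kept the direction they had without the offset. In a fit with only the libraries of MET+LEU and SD, 1 of 6 passed in MET+LEU vs. SD, at nearly unchanged log2 fold changes. The share of all genes that passed in that fit was not computed, so nothing is read from this count. The offset was added after the values had been seen, and it also removes any true change that follows GC content.

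**Figure D3:**
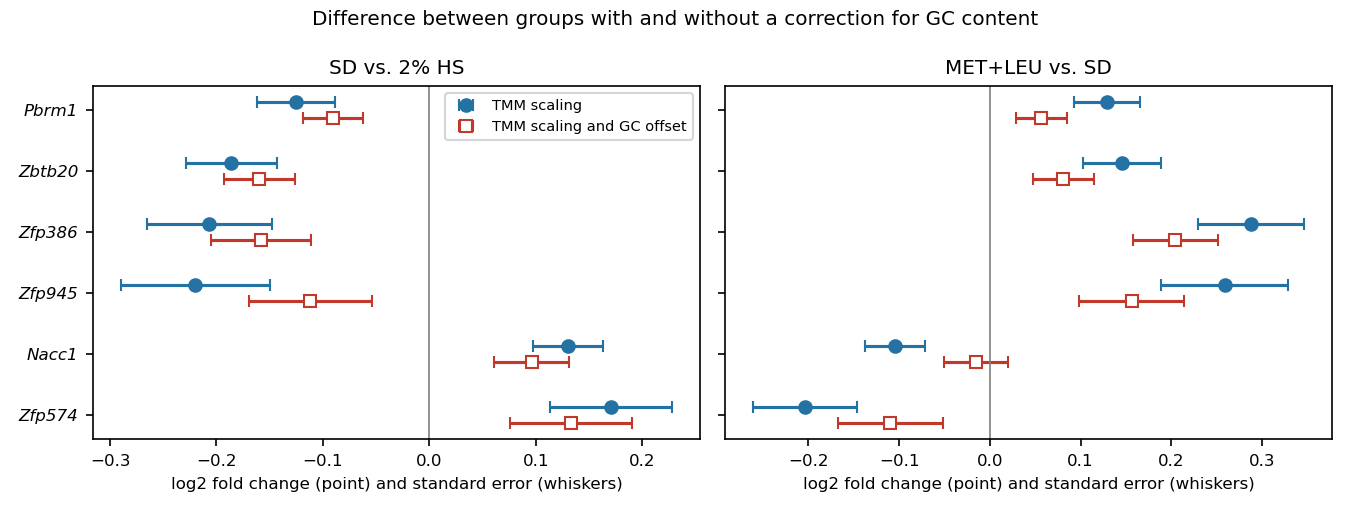
Points are log2 fold changes of the 6 genes in SD vs. 2% HS and MET+LEU vs. SD with the standard error as whiskers, from the fit with TMM scaling (blue circles) and with an added offset for GC content (red squares). The red squares lie nearer to 0 in all 12 pairs, and that of Nacc1 in MET+LEU vs. SD is at -0.015.

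The partners of Pbrm1 in PBAF did not move as one. Phf10, a PHD finger subunit of PBAF, had the same pattern as Pbrm1. It was the only one of 26 other tested SWI/SNF subunits to meet all 3 conditions, beside 2.17% of all genes. The lowest, median and highest CPM of Phf10 were 119.6, 126.8 and 129.6 in 2% HS, 99.34, 110.8 and 115.2 in SD, and 118.8, 125.2 and 144.1 in MET+LEU. The SD libraries all lay below both other groups, and so did the MET (101.4, 110.8 and 117.5) and LEU (106.3, 109.8 and 116.6) libraries. Phf10 fell in SD vs. 2% HS (-0.20 ± 0.042, edgeR adjusted p = 0.000223) and rose in MET+LEU vs. SD (0.22 ± 0.042, edgeR adjusted p = 0.000247). Against 2% HS, MET+LEU gave 0.016 (edgeR adjusted p = 0.792). Both calls held under every alternative run at the same threshold, with 0.15 in MET+LEU vs. SD under the GC offset and 0.17 without MET+LEU 6.

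Brd7, the bromodomain subunit of PBAF beside PBRM1, was at 137.2 ± 5.28 CPM in SD, 147.7 ± 6.44 CPM in 2% HS and 185.0 ± 31.7 CPM in MET+LEU (standard deviation, n = 6). It rose in MET+LEU vs. SD (0.43 ± 0.067, edgeR adjusted p = 4.66e-05), also without MET+LEU 6 (0.32), which stood at 248.9 CPM. In SD vs. 2% HS Brd7 was -0.11 ± 0.068 and did not pass, but did without MET+LEU 6 and in a fit of only those groups. Arid2, the DNA-binding subunit of PBAF, was -0.045 ± 0.042 and 0.055 ± 0.042 in these comparisons, and Smarca4, a catalytic ATPase of SWI/SNF, was 0.0060 ± 0.038 and 0.091 ± 0.038, with no value past the threshold. Smarca4 passed in MET+LEU vs. SD under the GC offset (0.16).

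**Figure D4:**
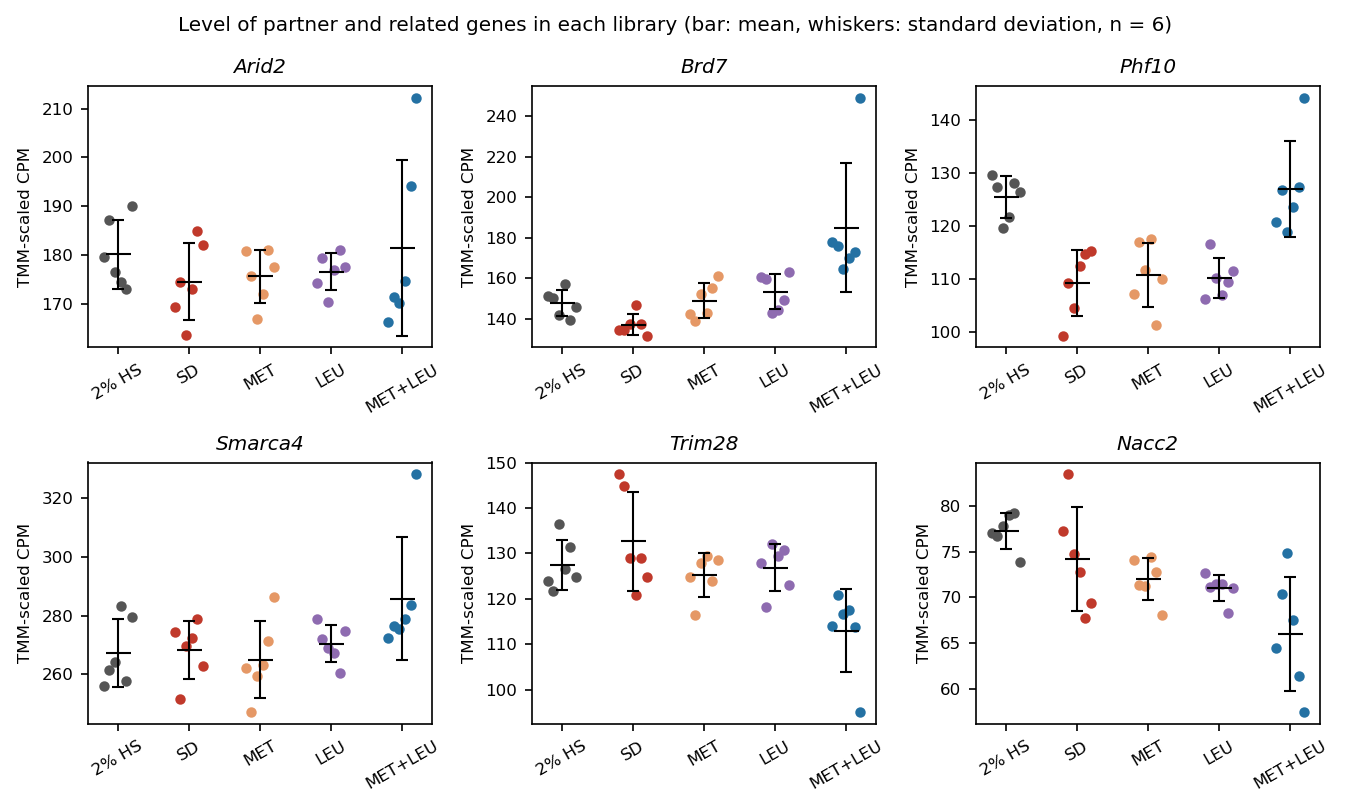
Each panel plots the TMM-scaled CPM of 1 gene in the 30 libraries by group, with mean and standard deviation (n = 6), for PBAF subunits (Arid2, Brd7, Phf10), the SWI/SNF ATPase Smarca4, the KRAB co-repressor Trim28 and Nacc2; the vertical axes do not start at 0. In Phf10 the highest SD library (115.2 CPM) is below the lowest of 2% HS (119.6 CPM) and MET+LEU (118.8 CPM), and MET+LEU 6 is an extreme point in all 6 panels.

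Over the 26 tested SWI/SNF subunits other than Pbrm1, 2 rose and 4 fell in SD vs. 2% HS (7.69% and 15.4%), beside 13.9% and 13.9% of all genes, with a median log2 fold change of 0.0090 beside 0.0030. In MET+LEU vs. SD 5 rose and 1 fell (19.2% and 3.85%), beside 10.6% and 7.80% of all genes, with a median of 0.039 beside -0.0050. Smarcd2, a core subunit, rose in SD vs. 2% HS (0.26 ± 0.053, edgeR adjusted p = 0.000147) and Bicra, a subunit of the non-canonical form, fell (-0.23 ± 0.056, edgeR adjusted p = 0.00127). Smarce1, which has an HMG box, rose in MET+LEU vs. SD (0.34 ± 0.064, edgeR adjusted p = 0.000262).

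Of 16 co-repressors used by KRAB zinc finger proteins, 1 rose and 3 fell in SD vs. 2% HS. Of all genes, 13.9% rose and 13.9% fell there. In MET+LEU vs. SD 4 of the 16 rose and 2 fell, beside 10.6% and 7.80% of all genes. The median log2 fold changes were 0.0060 and 0.023, beside 0.0030 and -0.0050 for all genes. Trim28, the scaffold that KRAB domains bind, was 0.057 ± 0.046 in SD vs. 2% HS and fell in MET+LEU vs. SD (-0.23 ± 0.047, edgeR adjusted p = 0.000357). That fall was -0.12 under the GC offset and still past the threshold. Setdb1, the H3K9 methyltransferase recruited by TRIM28, was -0.0080 ± 0.037 and -0.029 ± 0.037. Uhrf1, a reader of hemimethylated DNA with cell cycle-dependent expression, met the same 3 conditions as the 6 genes, higher in SD (0.44 ± 0.098) and lower again in MET+LEU vs. SD (-0.57 ± 0.099). It was the only 1 of the 16 to do so, beside 2.17% of all genes. Cbx5, which encodes HP1 alpha, fell in SD vs. 2% HS (-0.20 ± 0.030), and Mphosph8, a HUSH complex gene, rose in MET+LEU vs. SD (0.66 ± 0.11, and 0.47 without MET+LEU 6).

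Of 15 NuRD subunits, 3 rose and 1 fell in SD vs. 2% HS, beside 13.9% and 13.9% of all genes. Again 3 rose and 1 fell in MET+LEU vs. SD, beside 10.6% and 7.80% of all genes. Hdac1 (0.29 ± 0.055) and Cdk2ap1 (0.19 ± 0.055) rose in SD, and Mbd2 (0.22 ± 0.056, and 0.14 without MET+LEU 6) and Hdac2 (0.20 ± 0.046) rose in MET+LEU vs. SD. Of 10 co-repressors used by BTB proteins, 1 rose in SD vs. 2% HS (Bcor, 0.20 ± 0.043) and 0 fell. In MET+LEU vs. SD 3 of the 10 rose and 0 fell. The shares of all genes are those given for NuRD. Among the 3 were Gps2 (0.30 ± 0.079), an NCoR complex subunit, and Cul3 (0.23 ± 0.037), a ubiquitin ligase scaffold that binds BTB domains. Neither list had a member that met all 3 conditions, beside the 2.17% of all genes.

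Nacc2, the closest relative of Nacc1, did not share its pattern. It was 77.3 ± 1.95 CPM in 2% HS, 74.25 ± 5.69 CPM in SD and 65.99 ± 6.27 CPM in MET+LEU (standard deviation, n = 6). It was -0.057 ± 0.047 in SD vs. 2% HS and fell in MET+LEU vs. SD (-0.17 ± 0.047, edgeR adjusted p = 0.00857), though not in a fit of only those groups. Nacc2 was the only one of 4 tested BEN domain genes other than Nacc1 called in either comparison.

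Of 36 other Zbtb genes, 3 rose and 3 fell in SD vs. 2% HS (8.33% each), beside 13.9% and 13.9% of all genes. In MET+LEU vs. SD 2 rose and 5 fell (5.56% and 13.9%), beside 10.6% and 7.80% of all genes. None met all 3 conditions of Zbtb20, beside 2.17% of all genes. Zbtb18, a repressor with roles in muscle and brain, fell in SD (-0.43 ± 0.035) and was -0.025 ± 0.035 in MET+LEU vs. SD, at 256.5 ± 10.2 CPM in 2% HS, 190.3 ± 6.02 CPM in SD and 186.9 ± 9.36 CPM in MET+LEU. Zbtb40 rose in SD (0.39 ± 0.057) and fell in MET+LEU vs. SD (-0.19 ± 0.056), though not under the GC offset. Zbtb45 fell in MET+LEU vs. SD (-0.36 ± 0.093), as did the low Zbtb3 (-0.68 ± 0.23), which lost its call without MET+LEU 6, MET+LEU 5 or SD 1. The number of Zbtb genes called in MET+LEU vs. SD was 4 without SD 1 and 4 without MET+LEU 6.

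Of 332 other tested Zfp genes, 26 rose and 24 fell in SD vs. 2% HS (7.83% and 7.23%), beside 13.9% and 13.9% of all genes. Their median log2 fold change was 0.029, beside 0.0030 for all genes. In MET+LEU vs. SD 36 rose and 13 fell (10.8% and 3.92%), beside 10.6% and 7.80% of all genes. The median there was 0.049, beside -0.0050 for all genes. The median GC content of these Zfp genes was 44.1%, and the 49 calls in MET+LEU vs. SD were 18 under the GC offset, 23 without SD 1 and 26 without MET+LEU 6. Zfp423, a many-fingered regulator of adipose and neural development, rose most in SD vs. 2% HS (1.45 ± 0.13), from 4.23 ± 0.815 to 11.7 ± 1.37 CPM, and stayed at 12.58 ± 2.67 CPM in MET+LEU. Zfp385b fell (-1.41 ± 0.25). Zfp971 (0.56 ± 0.15, and 0.37 without MET+LEU 6) and the low Zfp273 (0.48 ± 0.16, not called without any 1 of SD 1, SD 2, SD 3 or MET+LEU 3, 4, 5 or 6) rose in MET+LEU vs. SD. Zfp598, a ribosome collision sensor named here because it was the single other Zfp gene to meet all 3 conditions, was -0.19 in MET+LEU vs. SD after 0.13 in SD vs. 2% HS. Of all genes, 2.17% met these conditions.

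**Figure D5:**
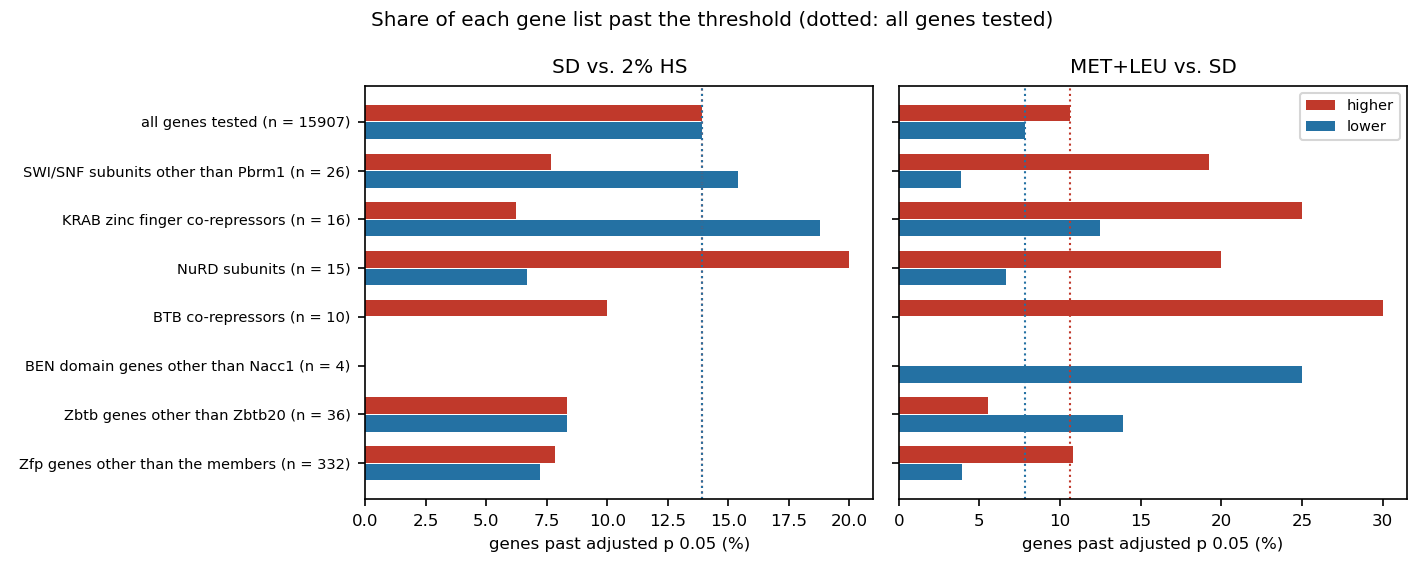
Bars give the percentage of tested genes of each list that passed an adjusted p of 0.05 in SD vs. 2% HS (left) and MET+LEU vs. SD (right), higher in red and lower in blue; dotted lines mark the share over all genes tested. In MET+LEU vs. SD the Zfp genes are at 10.8% higher and 3.92% lower, beside 10.6% and 7.80% of all genes.

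Over the 5 group means of log2 CPM, each centred on its own mean, the nearest genes to each regulator were found by their root mean square (RMS) difference. Pbrm1 was most like Reep3 (0.0064), Zfp112 (0.0075) and Rfc4 (0.0078), and Zbtb20 most like Ptpra (0.0077), Zfp292 (0.0089) and Ppp3cc (0.013). Zfp386 was nearest to Mut (0.016), Spata33 (0.017) and Eea1 (0.020), and Zfp945 to Cald1 (0.013), Chrdl1 (0.013) and Chpt1 (0.021). Nacc1 was nearest to Lrp5 (0.0073), Zfp235 (0.0085) and Zfp119a (0.0092), and Zfp574 to Map3k10 (0.0084), Tmem222 (0.0094) and Arhgap23 (0.011). Of these 18 genes, 4 are themselves Zfp genes, and 332 other Zfp genes were among the 15907 tested. The match used the 2% HS, SD and MET+LEU means that chose the regulators, so nothing is read from that count. Among the 6 regulators, the closest pair was Zfp386 and Zfp945 (0.023) and the most distant was Zfp386 and Zfp574 (0.17).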

How the data were processed

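The authors deposited raw read counts per Ensembl gene for 30 libraries (5 groups of 6). According to the submitters' processing notes, tools were cutadapt 1.16, STAR 2.7.6a, featureCounts 1.6.3 and DESeq2 1.30.1 with GRCm38; the annotation release and strand setting of the counting are not given in the sources used here. Libraries were stranded, ribosomal RNA-depleted and read at 150 × 150 bp.

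Counts were analysed in R 4.3.3 with edgeR 4.0.16: filterByExpr (minimum count 10, minimum total count 15), TMM, one mean per group over all libraries, robust glmQLFit, quasi-likelihood F test and Benjamini-Hochberg adjustment over 15907 genes at 0.05. The common biological coefficient of variation was 0.0709. CPM are TMM-scaled, and RPKM use the exonic length in GENCODE M21, which matched 55227 of 55487 genes. Log2 CPM used a prior count of 2. The GC offset was a lowess curve (span 0.3) of log2 deviation on GC content per library, for the 15881 tested genes with a value. Alternatives were DESeq2 1.42.0, limma 3.58.1 (voom), other scalings and filters, a replicate block, fewer groups, a threshold of 0.01 and leaving out each library. The scripts were tested on simulated data.

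The genes, lists and tests were chosen with earlier results of these data known. Named besides the 6 were Arid2, Brd7, Phf10, Smarca4, Trim28, Setdb1, Nacc2, the 2 genes of each list with the largest absolute log2 fold change among those called, for SD vs. 2% HS and likewise for MET+LEU vs. SD, and the 3 genes most like each regulator. Zfp598 and neighbouring genes were added after their values were seen.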

Additional observations from a re-analysis of the deposited data

Results flagged for a closer look

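Of the 30 combinations of gene and group, 3 held a library far from the others of its group by Dixon's test at the 95% level for 6 values; chance alone marks about 5% of groups. Zbtb20 was at 1493 CPM in MET+LEU 6, beside 1284 CPM in the next highest library. Zfp386 was at 70.71 CPM in MET+LEU 6, beside 57.78 CPM. Nacc1 was at 294.7 CPM in MET+LEU 1, the lowest of its group, beside 309.0 CPM.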

How the results depend on the processing

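For the 6 genes, SD vs. 2% HS gave 6 calls, 5 to 6 when 1 library was left out and 4 with the GC offset, an alternative chosen after seeing the data. MET+LEU vs. SD gave 6 calls, 4 to 6 without 1 library, 3 at a threshold of 0.01, 1 with only the groups compared and 1 with the GC offset. MET+LEU vs. 2% HS gave 0 calls, 0 to 1 without 1 library and 1 with limma-voom. MET+LEU vs. MET gave 2 calls, 0 to 3 without 1 library, 0 at a threshold of 0.01, 0 with only the groups compared, 1 with the GC offset and 1 with genes of more than 5 counts in total. MET vs. 2% HS gave 1 call, 1 to 2 without 1 library and 2 with limma-voom. LEU vs. 2% HS gave 1 call, 1 to 2 without 1 library, 2 with DESeq2's size factors, 2 with its Wald test, 3 with limma-voom and 4 with only the groups compared. MET vs. SD, LEU vs. SD, MET vs. LEU, MET+LEU vs. LEU and the interaction gave 0 under every alternative run. The share of all genes called was computed only for the main fit and the GC offset, and the cause of these shifts was not tested.

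Among the lists, SD vs. 2% HS gave 1 call in the BTB co-repressor list, which also holds Cul3 (1 to 2 without 1 library, 2 with the GC offset). It gave 0 in BEN domain genes (0 to 1 without 1 library), and 1 with upper-quartile normalization, DESeq2, limma-voom, at least 10 counts in every library, no robust option or the GC offset. It gave 50 in Zfp genes, and 28 at a threshold of 0.01. In MET+LEU vs. SD the 1 BEN domain call was 0 with only the groups compared. The 7 Zbtb calls were 4 to 9 without 1 library, 2 at a threshold of 0.01, 3 with limma-voom, 1 with only the groups compared and 3 with the GC offset. The 49 Zfp calls were 23 to 57 without 1 library, 16 at a threshold of 0.01, 15 with limma-voom, 14 with only the groups compared and 18 with the GC offset.

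Signs turned only in differences near 0 that did not pass the threshold. Pbrm1 in MET+LEU vs. 2% HS was 0.0036, and -0.0003 with DESeq2's size factors, -0.022 with upper-quartile normalization, -0.0004 with the Wald test, -0.018 with limma-voom, -0.0080 with at least 10 counts in every library, -0.0021 with only the groups compared, -0.034 with the GC offset and -0.028 to 0.011 without 1 library. Its interaction was -0.0063 with upper-quartile normalization, -0.0004 with genes of more than 5 counts in total, -0.031 with the GC offset and -0.033 to 0.030 without 1 library. With the GC offset, Nacc1 was 0.055 in MET+LEU vs. MET and 0.020 in MET+LEU vs. LEU, and Zfp574 was 0.023 in MET+LEU vs. 2% HS. Without 1 library, Nacc1 ran from -0.0017 to 0.029 in MET+LEU vs. 2% HS and from -0.033 to 0.0039 in MET+LEU vs. MET, Zbtb20 from -0.038 to 0.018 in MET vs. SD, and Zfp386 from -0.034 to 0.0064 in MET vs. LEU and from -0.022 to 0.073 in the interaction. Zfp945 ran from -0.0093 to 0.051 in MET+LEU vs. 2% HS, from -0.0088 to 0.077 in MET vs. LEU and from -0.0056 to 0.12 in the interaction.

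The replicate numbers do not pair the libraries: deviations of libraries with the same number correlated at a mean r of 0.016 (-0.091 to 0.14 over 60 pairs), and those with different numbers at -0.0031. With the replicate block, 6 of 6 genes were called in MET+LEU vs. SD, 6 of 6 in SD vs. 2% HS, and 1 BEN domain gene in SD vs. 2% HS. Zfp574 had the fewest counts, at 240 to 433 per library. Zfp945 had the largest standard error, at 0.070 in SD vs. 2% HS beside 0.057 for Zfp574. All intervals cover the spread between these libraries only.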
